A study of Mus musculus with 7 samples.

Results

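The genes described here make, control and break down polyamines, and they include Amd2, a second gene for S-adenosylmethionine decarboxylase that copies Amd1. The 10 genes were taken by name from a table of read counts that held 55414 genes. They were Amd2, Amd1, Odc1, Srm, Sms, Azin1, Oaz1, Oaz2, Sat1 and Smox. Amd2 was chosen by its fold change and adjusted p in an earlier analysis of these same libraries, so its difference is given as a description with no test. The other 9 were added as its pathway. RNA with polyadenylated tails was sequenced from mouse spleens. There were 4 samples of genotype Fpr2KO, which lack the formyl peptide receptor gene Fpr2, and 3 wild-type (WT) samples whose genotype is given as C57BL/6N. The sources used here give neither the age and sex of the mice nor the strain background and making of the Fpr2KO allele. The samples are numbered as replicates, but whether these were different mice is not stated, and every p-value therefore reflects only how far these samples spread, which may be technical.

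Polyamines (putrescine, spermidine and spermine) are small positively charged molecules that bind nucleic acids and are needed for growth. Ornithine decarboxylase, the product of Odc1, makes putrescine. S-adenosylmethionine decarboxylase supplies the aminopropyl groups with which spermidine synthase (Srm) and spermine synthase (Sms) extend it. Antizymes (Oaz1, Oaz2) bind ornithine decarboxylase and send it to the proteasome, and the antizyme inhibitor (Azin1) holds them back. Spermidine/spermine acetyltransferase (Sat1) and spermine oxidase (Smox) run the chain in reverse. The spleen of a mouse is a lymphoid organ that also forms red cells, and dividing cells are known to use this pathway heavily.

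Total counts ran from 14968605 to 18692809 per library. The targeted gene followed the labels. Fpr2 had 0 reads in all 4 Fpr2KO libraries, against 537, 479 and 477 reads in WT libraries 1, 2 and 3. Spleen identity was clear in every library, since all 8 B and T cell markers had reads in each and their summed level lay between 2552 and 2984 CPM (counts scaled to library size, with TMM factors) in Fpr2KO and between 2703 and 2884 CPM in WT. Pancreatic acinar markers, a list of 12, summed to 880 and 506 CPM in Fpr2KO replicates 1 and 2, to 38.4 and 35.2 CPM in Fpr2KO replicates 3 and 4, and to between 23.5 and 48.2 CPM in WT. Of the acinar markers, 3 had reads in every library. Results are therefore also given without Fpr2KO replicates 1 and 2.

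Amd1 and Amd2 lie 4576 kb apart on chromosome 10 (GRCm38), both on the minus strand. Amd1 (ENSMUSG00000075232, 40287458 to 40302186) has 8 exons in its main transcript of 3204 bases. Amd2 (ENSMUSG00000063953, 35708675 to 35711892) has 1 exon of 3218 bases, which runs along the spliced Amd1 sequence. Of 3204 aligned bases 3190 were the same (99.6%), with 14 substitutions, and the alignment held another 14 gap columns, where Amd2 has bases that Amd1 lacks. The positions of the substitutions, counted from 1 at the first base of the Amd1 transcript, put 1 upstream of the coding sequence (T166A), 1 within it (G1124C, Amd1 base first) and 12 downstream. The coding sequences, 1002 bases each, thus matched at 99.9% of positions. Of the downstream substitutions, C3199A, T3201A, T3202A and G3203A lie at the very end of the 3204-base Amd1 transcript, each with A in Amd2. The coding difference falls at coding base 796, in codon 266. The stretch around it is shown because it is the only place in the coding sequence at which a read can tell the copies apart; it comes from the GENCODE transcripts (GRCm38, minus strand; chr10:40290156-40290216 for Amd1 and chr10:35710734-35710794 for Amd2), with the differing base in capitals.
Amd1 coding stretch: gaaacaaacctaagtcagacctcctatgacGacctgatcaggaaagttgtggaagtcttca
Amd2 coding stretch: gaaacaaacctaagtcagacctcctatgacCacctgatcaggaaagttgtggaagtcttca

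The sequences before the gene starts were unlike each other. RefSeq's promoter windows (GRCm38.p6) run from 250 bases before the start to 50 after it, at chr10:40302139-40302438 for Amd1 and chr10:35711842-35712141 for Amd2, both on the minus strand. They are shown, with their longest shared run in capitals, because they separate what the copies share from what they do not. The shared run of 48 bases begins at window base 253 in Amd1 and 251 in Amd2, so it opens at or just after the annotated start. Upstream of it the longest run in common was 7 bases.
Amd1 promoter: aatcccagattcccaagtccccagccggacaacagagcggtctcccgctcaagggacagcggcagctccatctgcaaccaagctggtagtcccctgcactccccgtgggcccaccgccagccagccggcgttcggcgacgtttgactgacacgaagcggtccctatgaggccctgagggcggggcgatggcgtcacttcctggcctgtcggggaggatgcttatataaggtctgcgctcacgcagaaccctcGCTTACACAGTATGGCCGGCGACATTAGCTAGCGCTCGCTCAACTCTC
Amd2 promoter: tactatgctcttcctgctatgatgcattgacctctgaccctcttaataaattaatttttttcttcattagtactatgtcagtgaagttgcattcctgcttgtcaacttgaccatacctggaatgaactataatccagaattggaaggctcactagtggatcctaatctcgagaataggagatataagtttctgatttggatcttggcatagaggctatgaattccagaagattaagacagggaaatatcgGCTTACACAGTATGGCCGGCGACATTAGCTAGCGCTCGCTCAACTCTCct

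The letters TATATAA, searched on both strands, occur in the Amd1 window, beginning 29 bases before the start, and not in the Amd2 window. They were in 3.24% of 32851 RefSeq promoter windows. The letters CACGTG, the sequence bound by Myc and its partner Max, were in 7.15% of all windows. Among the 10 genes, 8 had a window, and CACGTG was in that of Sms alone. The genes with no window were Srm and Azin1.

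The likeness of the copies limits what their counts can say. Cut into windows of 100 bases, 27.1% of the Amd2 transcript (846 of 3119 windows) and 23.6% of the Amd1 transcript (732 of 3105) were found in no transcript of another gene. With windows of 50 bases the shares were 14.3% for Amd2 and 12.4% for Amd1, and with 150 bases 38.4% and 33.2%. The other windows were shared mainly between Amd1 and Amd2. Neither the read length nor the treatment of reads that match several places is stated in the labels. Counts of both genes are therefore uncertain, and a read of either could have been assigned to the other or left out.

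**Figure D1:**
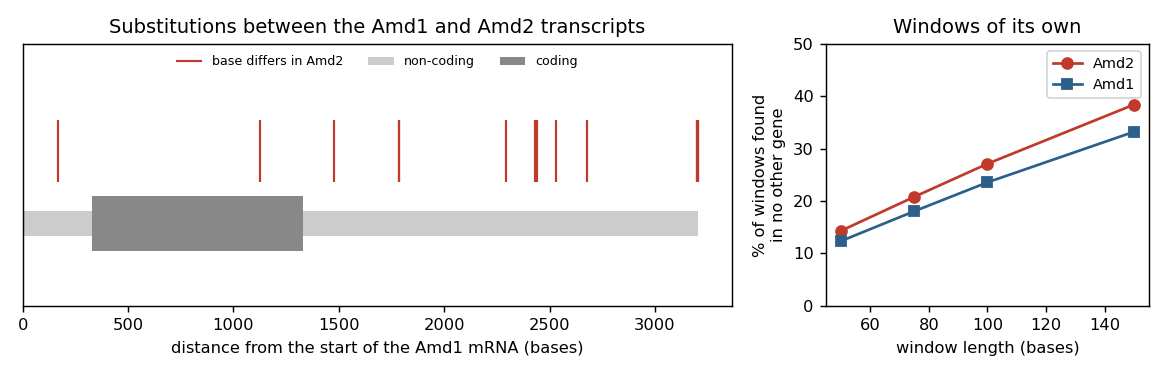
Left, the Amd1 transcript drawn to scale in bases from its start, with coding sequence as the thick bar and the 14 substitutions in Amd2 as red lines; 1 line lies within the coding sequence. Right, the percentage of windows of each length (in bases) found in no other gene's transcript, for Amd2 and Amd1; at 100 bases it is 27.1% for Amd2 and 23.6% for Amd1.

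Amd2 was lower in every Fpr2KO library than in every WT library. It had 13, 14, 10 and 13 reads in Fpr2KO libraries 1 to 4, against 78, 79 and 76 reads in WT libraries 1 to 3. In scaled values this was 0.765, 0.751, 0.592 and 0.678 CPM in Fpr2KO and 5.23, 5.18 and 4.68 CPM in WT. The groups lay far apart, and the libraries within each group were close together. The mean was 0.697 ± 0.0794 CPM in Fpr2KO (SD, n = 4) and 5.03 ± 0.304 CPM in WT (SD, n = 3), so the WT mean was 7.22 times that of Fpr2KO. The fitted log2 fold change was -2.84 (SE 0.22). It was -2.96 without Fpr2KO replicates 1 and 2, and between -2.89 and -2.77 when any single library was left out. The 50 reads in the Fpr2KO libraries together stood above the 3 counts per library taken as the floor in each of them, whereas Fpr2 had no reads there. Whether these few reads came from Amd2 or from Amd1 cannot be told apart. Neutrophil markers were also lower in these libraries. The summed level of 12 such genes lay between 1451 and 2941 CPM in Fpr2KO and between 3535 and 4877 CPM in WT, with 0 of the 12 passing edgeR's test, and their part in the Amd2 difference was not tested. Fat cell markers, a list of 8, summed to 10.4 to 16.36 CPM in Fpr2KO and 16.45 to 44.9 CPM in WT. Only 4 of these 8 had reads in every library, and their part was not tested either. In bulk tissue, fewer cells of a type and less RNA per cell cannot be told apart. The strain background of the Fpr2KO samples is not given, so loss of Fpr2 and a difference in background cannot be told apart either.

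Amd1, to which most reads of the pair were assigned, was about as abundant in both groups. It had 127, 107, 125 and 87.3 CPM in Fpr2KO libraries 1 to 4 and 98.1, 113 and 95.5 CPM in WT libraries 1 to 3. The groups overlapped, with both the highest and the lowest library being Fpr2KO. The mean was 111 ± 18.5 CPM in Fpr2KO (SD, n = 4) and 102 ± 9.17 CPM in WT (SD, n = 3). The log2 fold change of 0.13 (SE 0.13, 95% interval -0.17 to 0.42) did not pass edgeR's quasi-likelihood test (Benjamini-Hochberg adjusted p = 1.0). It was 0.23 without Fpr2KO replicate 4, 0.20 without WT replicate 2, 0.08 without WT replicate 3, 0.07 without Fpr2KO replicate 1 or 3, and 0.06 without Fpr2KO replicates 1 and 2 together.

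Amd2 was a small part of the decarboxylase reads in either group. It gave 0.599%, 0.699%, 0.473% and 0.770% of the reads of Amd1 and Amd2 together in Fpr2KO libraries 1 to 4, and 5.06%, 4.40% and 4.67% in WT libraries 1 to 3. The Wilson 95% intervals, which cover counting error only, reached from 0.257% to 1.31% over the Fpr2KO libraries and from 3.54% to 6.27% over the WT libraries. Since Amd2 was chosen for its difference, these shares describe the libraries and test nothing. The summed level of the pair was 112 ± 18.5 CPM in Fpr2KO (SD, n = 4) and 107 ± 9.34 CPM in WT (SD, n = 3). The means differed by 5.10 CPM (Fpr2KO minus WT), which is less than the SD of either group. For Amd2 alone the difference was -4.33 CPM, and for Amd1 alone 9.43 CPM. The Amd1 difference was less than the SD of Amd1 in Fpr2KO (18.5 CPM) and slightly more than that in WT (9.17 CPM).

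**Figure D2:**
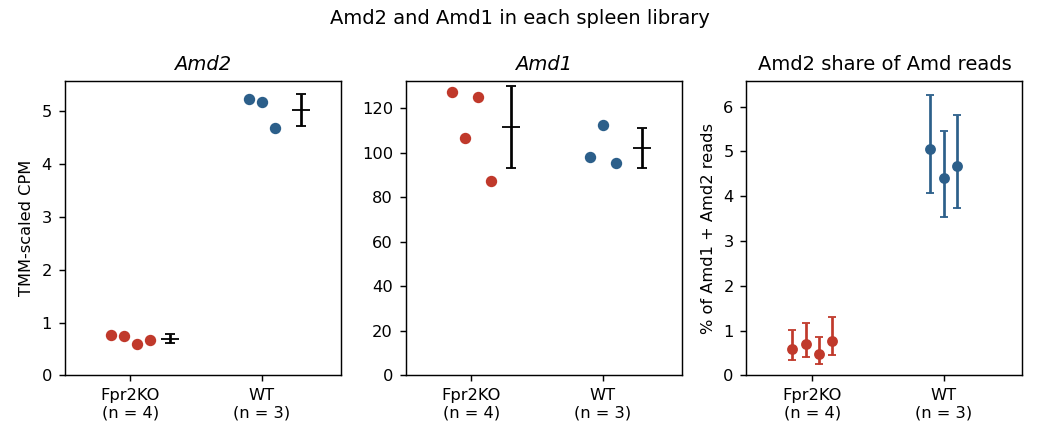
TMM-scaled CPM of Amd2 (left) and Amd1 (centre), and the percentage of Amd1 plus Amd2 reads that were assigned to Amd2 (right), in the 4 Fpr2KO and 3 WT libraries. Points are libraries, black bars are the mean ± SD, and bars on the right are Wilson 95% intervals; Amd2 lies between 0.592 and 0.765 CPM in Fpr2KO and between 4.68 and 5.23 CPM in WT, while Amd1 overlaps.

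Other copies of the gene had few or no reads. Among the processed pseudogenes, Amd-ps3 had 21 reads in the Fpr2KO libraries together and 10 in WT, and Amd-ps4 had 21 and 6. Amd-ps1 had 2, 1, 1 and 1 reads in Fpr2KO libraries 1 to 4 and 0 in each WT library, which is within the floor of 3 counts. Amd-ps5, Amd-ps6 and Gm42818 had 0 reads in all 7 libraries, and AC144860.3, a further pseudogene that shares windows with Amd1, had 3 in all. None of these passed the filter on low counts. Nothing could be read from the surroundings of Amd2, because the 12 annotated genes within 1 Mb of it had 0 reads in every library. The nearest tested genes on either side, named after their values were seen, were Frk at 1097 kb (log2 fold change 0.61, SE 0.28) and Hdac2 at 1263 kb (0.10, SE 0.09). Neither passed edgeR's test (adjusted p = 1.0).

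Over the 7 libraries, the 5 tested genes whose pattern was nearest to that of Amd2 were Igkv4-58, Lin28a, Sytl3, Lhx1 and Ces1d. Nearness was the root mean square difference in log2 CPM, each gene centred on its own mean, and it ran from 0.42 for Igkv4-58 to 0.67 for Ces1d. Igkv4-58, an immunoglobulin light chain variable segment whose family members are alike and may share reads, averaged 9.39 CPM in Fpr2KO and 53.5 CPM in WT. Its WT libraries 1 to 3 had 84.9, 34.3 and 41.4 CPM. Lin28a, an RNA-binding protein of early embryos that blocks let-7 processing, averaged 1.23 CPM in Fpr2KO and 3.54 CPM in WT. In Lhx1, a homeobox gene, the Fpr2KO libraries held 12 reads in all and the WT libraries 58, of which WT replicate 1 held 35. The log2 fold changes of the 5 genes lay between -2.87 and -1.52, and none passed edgeR's test over all genes. All 5 were picked as near to Amd2, itself chosen for its difference, so their direction follows from the choice.

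Among the 10 polyamine genes, all of which passed the filter on low counts, 1 was called as lower at an edgeR adjusted p under 0.05 and 0 as higher. Of all 16089 tested genes, 6 or 0.0373% were called, all of them lower. The 1 gene called was Amd2, which had been chosen for it, so nothing is read from this count. At an unadjusted p under 0.05 the counts among the 10 were 1 lower and 0 higher, against 3.07% lower and 1.91% higher of all tested genes. The groups did not overlap in the same 1 gene of the 10, against 3.18% of all tested genes for lower and 2.73% for higher. The 9 other genes had log2 fold changes from -0.36 to 0.19, with a median of 0.06 against -0.0049 for all tested genes, and in 9 of 9 the groups overlapped. The edgeR adjusted p was 1.0 for each of the 9.

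Relative to its length, the antizyme gene Oaz1 (chromosome 10, 80826656 to 80829290) was the most abundant of the 10. It averaged 186 ± 35.4 CPM per kb of exon in Fpr2KO (SD, n = 4) and 216 ± 58.8 in WT (SD, n = 3). Sat1 followed at 137 ± 9.98 in Fpr2KO and 126 ± 3.6 in WT, and Odc1 at 77.6 ± 30.8 in Fpr2KO and 98.7 ± 36.8 in WT. The level of the antizyme transcript thus stood above that of its target enzyme in both groups. Azin1, Amd1, Srm and Oaz2 came next, between 24.8 and 31.5 CPM per kb in Fpr2KO and between 23.7 and 32.0 in WT. In Fpr2KO, Amd1, Azin1 and Srm differed by less than their SDs. In WT, Azin1 lay above Amd1 by more than the SD of Amd1 and by less than its own. Oaz2 lay below Srm by more than either SD in Fpr2KO and by less than the SD of Srm in WT. Smox had 17.4 ± 8.97 CPM per kb in Fpr2KO and 22.3 ± 11.2 in WT, a spread that reached up to Oaz2. Sms was lower, at 9.46 ± 0.358 in Fpr2KO and 8.27 ± 0.848 in WT. Amd2 was the least abundant, at 0.216 ± 0.0247 in Fpr2KO and 1.56 ± 0.0945 in WT. The per-length values of Amd1 and Amd2 carry the doubt about shared reads.

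The synthases that build spermidine and spermine showed little difference. Srm (chromosome 4, 148591503 to 148594993), spermidine synthase, had 48.2, 40.03, 51.0 and 46.7 CPM in Fpr2KO libraries 1 to 4 and 34.9, 45.9 and 53.1 CPM in WT libraries 1 to 3. The WT libraries held both extremes. Its log2 fold change was 0.06 (SE 0.14, 95% interval -0.26 to 0.38) and turned to -0.09 without WT replicate 1. Sms (chromosome X, 157443855 to 157492287), spermine synthase, had 55.6, 58.6, 58.8 and 54.5 CPM in Fpr2KO libraries 1 to 4 and 46.9, 46.7 and 55.6 CPM in WT libraries 1 to 3. A pair of WT libraries lay below all Fpr2KO libraries, and WT replicate 3 lay among them. The log2 fold change of 0.19 (SE 0.09, 95% interval -0.01 to 0.39) had an unadjusted edgeR p of 0.0550 and did not pass (edgeR adjusted p = 1.0). A processed copy of it, Sms-ps, averaged 0.750 CPM in Fpr2KO and 0.494 CPM in WT, so reads of the pair may be shared.

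On the breakdown side, Sat1 (chromosome X, 155213132 to 155216449), the acetyltransferase that marks spermidine and spermine for oxidation or export, had 411, 344, 387 and 376 CPM in Fpr2KO libraries 1 to 4. In WT libraries 1 to 3 it had 350, 358 and 338 CPM. Fpr2KO replicate 2 lay within the WT range and the other 3 Fpr2KO libraries above it. The log2 fold change was 0.12 (SE 0.08, 95% interval -0.06 to 0.31; edgeR adjusted p = 1.0). Oaz2 (chromosome 9, 65668001 to 65690300), the second antizyme, was level, with 74.0 ± 8.05 CPM in Fpr2KO (n = 4) and 70.9 ± 3.52 in WT (n = 3). Its log2 fold change of 0.06 (SE 0.10, 95% interval -0.16 to 0.28) was -0.01 without Fpr2KO replicate 4.

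Odc1, whose product starts the chain, and Smox, Azin1 and Oaz1 varied more within the groups than their group means differed. Odc1 (chromosome 12, 17544794 to 17551505) had 403, 149, 248 and 256 CPM in Fpr2KO libraries 1 to 4 and 321, 468 and 219 CPM in WT libraries 1 to 3. The lowest and highest libraries were thus Fpr2KO replicate 2 and WT replicate 2. Smox (chromosome 2, 131491496 to 131525922) had 118, 35.9, 57.9 and 59.5 CPM in Fpr2KO libraries 1 to 4 and 80.3, 133 and 46.7 CPM in WT libraries 1 to 3. The same libraries stood at the ends. Its SD was 51.6% of the mean in Fpr2KO and 50.3% in WT, against 3.78% and 10.2% for Sms.

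Azin1 (chromosome 15, 38487427 to 38519266) had 255, 143, 171 and 172 CPM in Fpr2KO libraries 1 to 4 and 207, 240 and 153 CPM in WT libraries 1 to 3. Oaz1 likewise had 594, 375, 455 and 480 CPM in Fpr2KO libraries 1 to 4 and 468, 727 and 465 CPM in WT libraries 1 to 3. For all 4 genes the lowest library was Fpr2KO replicate 2 and the top pair was Fpr2KO replicate 1 and WT replicate 2. The log2 fold changes were -0.35 (SE 0.40) for Odc1, -0.36 (SE 0.52) for Smox, -0.11 (SE 0.23) for Azin1 and -0.22 (SE 0.20) for Oaz1. Without WT replicate 2 those of Smox, Azin1 and Oaz1 turned to 0.09, 0.04 and 0.03, and that of Odc1 was -0.03. Without Fpr2KO replicate 1 they were -0.62 for Odc1, -0.75 for Smox, -0.29 for Azin1 and -0.33 for Oaz1. Without WT replicate 3 they were -0.58 for Odc1, -0.66 for Smox, -0.27 for Azin1 and -0.33 for Oaz1, and without Fpr2KO replicate 2 they were -0.15, -0.15, -0.01 and -0.12 in the same order. These intervals were wide, reaching from -1.33 to 0.64 for Odc1 and from -1.67 to 0.95 for Smox, so differences of that size between the groups were not detectable here.

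**Figure D3:**
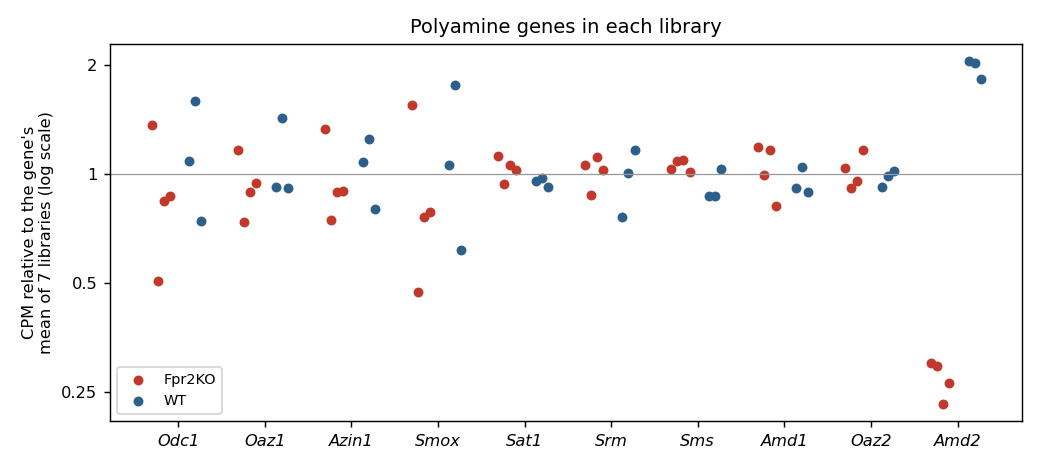
CPM of each of the 10 polyamine genes in each library, divided by that gene's mean over the 7 libraries (log scale), with the 4 Fpr2KO libraries in red left of the 3 WT libraries in blue. Amd2 lies between 0.232 and 0.300 in Fpr2KO and between 1.83 and 2.05 in WT; Odc1 and Smox spread the most within the groups, and all genes but Amd2 overlap.

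Red cell markers took the same order over the libraries. The summed level of 11 erythroid markers, mostly haemoglobin, was 52513, 10158, 19639 and 25645 CPM in Fpr2KO libraries 1 to 4 and 43284, 92813 and 15098 CPM in WT libraries 1 to 3. Ranked by it, the 7 libraries fell in exactly the order of their Odc1 and Smox levels. Proliferation markers, a list of 12, took a similar but not the same order, summing to 2124, 751, 1152 and 1083 CPM in Fpr2KO libraries 1 to 4 and to 1390, 1877 and 1003 CPM in WT libraries 1 to 3.

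When the log2 erythroid marker sum was added as a term beside genotype, 4 of the 10 genes followed it, all upward. This fit was added after the values had been seen, so its slopes and their p-values describe these libraries and are no independent support. Per doubling of the erythroid sum, Smox was higher by 0.64 on the log2 scale (SE 0.05, edgeR adjusted p = 2.71e-05), Odc1 by 0.49 (SE 0.05, edgeR adjusted p = 0.000133), Azin1 by 0.29 (SE 0.04, edgeR adjusted p = 0.00214) and Oaz1 by 0.25 (SE 0.05, edgeR adjusted p = 0.0142). Of all 16089 tested genes, 861 followed the erythroid sum at that threshold, or 5.35%, with 739 of them (4.59%) upward. The slopes of Smox, Odc1 and Azin1 passed in all 7 fits that left out 1 library, between 0.57 and 0.70 for Smox, 0.44 and 0.57 for Odc1, and 0.23 and 0.33 for Azin1. That of Oaz1 did not pass without WT replicate 2 (0.20, edgeR adjusted p = 0.156), Fpr2KO replicate 1 (0.23, edgeR adjusted p = 0.180) or Fpr2KO replicate 2 (0.24, edgeR adjusted p = 0.110). These fits share most of their libraries, so passing in them is no separate support. No slope was fitted without Fpr2KO replicates 1 and 2 together. The other 6 genes had slopes from -0.07 for Sms to 0.08 for Amd1, and none passed. With the proliferation sum in place of the erythroid sum, these 4 genes passed as well, among 897 of 16089 tested genes (5.58%), with 791 (4.92%) upward. The part of red cell content and that of cell division cannot be told apart.

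In this fit the genotype terms of Odc1 and Smox were 0.02 (SE 0.10) and 0.14 (SE 0.10), and those of Azin1 and Oaz1 were 0.11 (SE 0.09) and -0.02 (SE 0.11). None passed edgeR's test. The standard errors for Odc1 and Smox were smaller than with genotype alone, where they were 0.40 and 0.52. The term was added after the values had been seen and ranks the libraries as both genes do. No gain in precision is therefore read from this. Amd2 had a genotype term of -2.80 (SE 0.25) and an erythroid slope of 0.05 (SE 0.12).

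**Figure D4:**
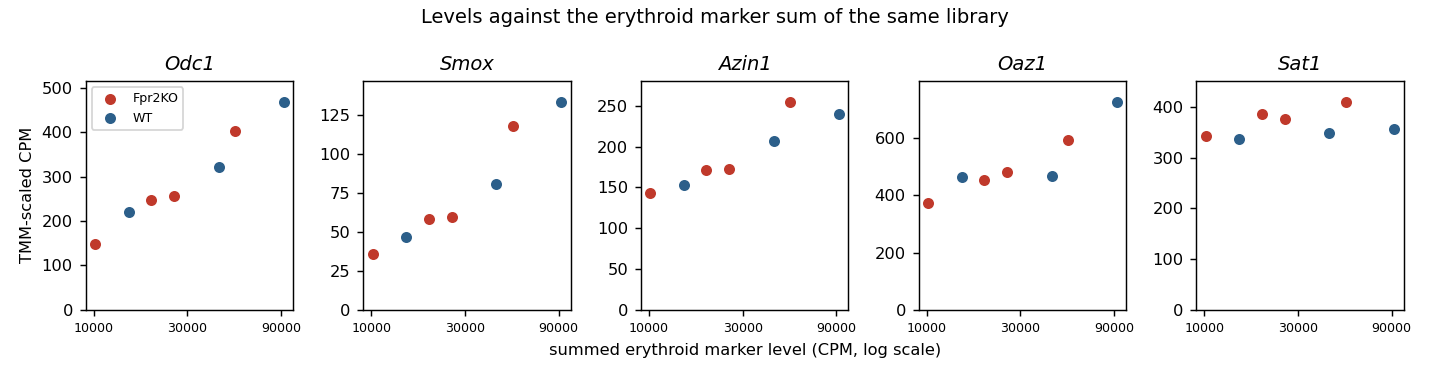
TMM-scaled CPM of Odc1, Smox, Azin1, Oaz1 and Sat1 in each library, against the summed CPM of 11 erythroid markers in the same library (log scale), with Fpr2KO in red and WT in blue. Odc1 and Smox climb from Fpr2KO replicate 2, with an erythroid sum of 10158 CPM, to WT replicate 2, with 92813 CPM, while Sat1 stays between 338 and 411 CPM.

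Beyond these 10 genes, 37 further genes of polyamine metabolism and its supply were examined, of which 33 passed the filter on low counts. Of the 33, 0 passed edgeR's test as higher and 0 as lower, against 0.0373% of all tested genes. At an unadjusted p under 0.05 there were 2 higher and 2 lower, which is 4 of 33 against 4.98% of all tested genes. No overlap between groups was seen in 3 of the 33, against 5.91% of all tested genes. Their median log2 fold change was 0.02, beside -0.0049 for all tested genes, with 19 fitted higher and 14 lower.

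In the arginine and ornithine supply, 5 of 7 genes were tested and the median was -0.04. Arg2, the mitochondrial arginase that makes ornithine, had 6.06, 5.04, 5.75 and 5.94 CPM in Fpr2KO libraries 1 to 4 and 19.2, 10.3 and 8.43 CPM in WT libraries 1 to 3. All Fpr2KO libraries lay below all WT libraries, and WT replicate 1 stood high. By edgeR the log2 fold change was -1.15 (SE 0.26, adjusted p = 0.479), short of the threshold, and it was -0.71 without WT replicate 1. DESeq2 called Arg2 as lower (-1.13, adjusted p = 0.0138), among 58 calls or 0.354% of the genes it tested. The neutrophil and fat cell marker sums were lower in the same libraries, and their part in this value was not tested. Slc7a2, a transporter of arginine and other basic amino acids, had 38.9 ± 9.13 CPM in Fpr2KO (n = 4) and 27.6 ± 5.56 in WT (n = 3), a log2 fold change of 0.50 (SE 0.21) that did not pass (edgeR adjusted p = 0.988). Arg1, the cytosolic arginase, had 7 reads in the Fpr2KO libraries together and 10 in WT, and was not tested.

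The methionine cycle, which supplies S-adenosylmethionine, and the salvage of methylthioadenosine, the by-product of the synthases, had 10 of 11 genes tested, with log2 fold changes from -0.18 to 0.16 and a median of 0.08. Mat2a, the S-adenosylmethionine synthetase of most tissues, had 223 ± 16.7 CPM in Fpr2KO (n = 4) and 205 ± 2.88 in WT (n = 3), with a log2 fold change of 0.12 (SE 0.08). Ahcyl2, a relative of the hydrolase that clears S-adenosylhomocysteine, was at -0.18 (SE 0.09). Mat1a, the liver form of Mat2a, had 3 reads in the Fpr2KO libraries together and 0 in WT. The eIF5A group, in which spermidine is used to modify the translation factor, had 4 of 4 genes tested and lay between -0.09 for Eif5a2 and 0.11 for Dohh, the hydroxylase of the last step. Eif5a itself had 578 ± 49.9 CPM in Fpr2KO (n = 4) and 577 ± 81.6 in WT (n = 3).

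Among transporters, with 5 of 5 tested, Slc18b1, a vesicular polyamine transporter, had 3.18, 3.43, 3.32 and 3.75 CPM in Fpr2KO libraries 1 to 4 and 1.88, 2.62 and 2.77 CPM in WT libraries 1 to 3. All Fpr2KO libraries lay above all WT libraries, with a log2 fold change of 0.50 (SE 0.21) that did not pass (edgeR adjusted p = 0.988). Slc3a2, the heavy chain of amino acid transporters, was at -0.14 (SE 0.10). In the breakdown list 3 of 4 genes were tested, and Aoc1, a diamine oxidase, was at -0.18 (SE 0.32) and Sat2 at 0.10 (SE 0.33). In the antizyme list Oaz3, the antizyme of the testis, was at 0.52 (SE 0.38) from 1.14 ± 0.372 CPM in Fpr2KO (n = 4) and 0.804 ± 0.260 in WT (n = 3), and Azin2 was at -0.13 (SE 0.21). A processed copy of Oaz1, Oaz1-ps, averaged 8.52 CPM in Fpr2KO and 10.1 CPM in WT, so reads of Oaz1 may be shared with it.

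Myc, the transcription factor known to drive Odc1 and other genes of the pathway, had 54.1, 51.2, 57.1 and 52.6 CPM in Fpr2KO libraries 1 to 4 and 66.4, 62.5 and 58.7 CPM in WT libraries 1 to 3. All Fpr2KO libraries lay below all WT libraries, though Fpr2KO replicate 3 came close to WT replicate 3. With a log2 fold change of -0.22 (SE 0.08), Myc was short of the threshold (edgeR adjusted p = 0.916). Mycl was at 0.19 (SE 0.14). Myc did not follow the erythroid sum (slope 0.03, SE 0.04, edgeR adjusted p = 0.843). Of the 33 other tested pathway genes only Ass1, from the arginine and ornithine supply, followed it, against 5.35% of all tested genes. Its slope was downward (-0.24, SE 0.06, edgeR adjusted p = 0.0468).

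**Figure D5:**
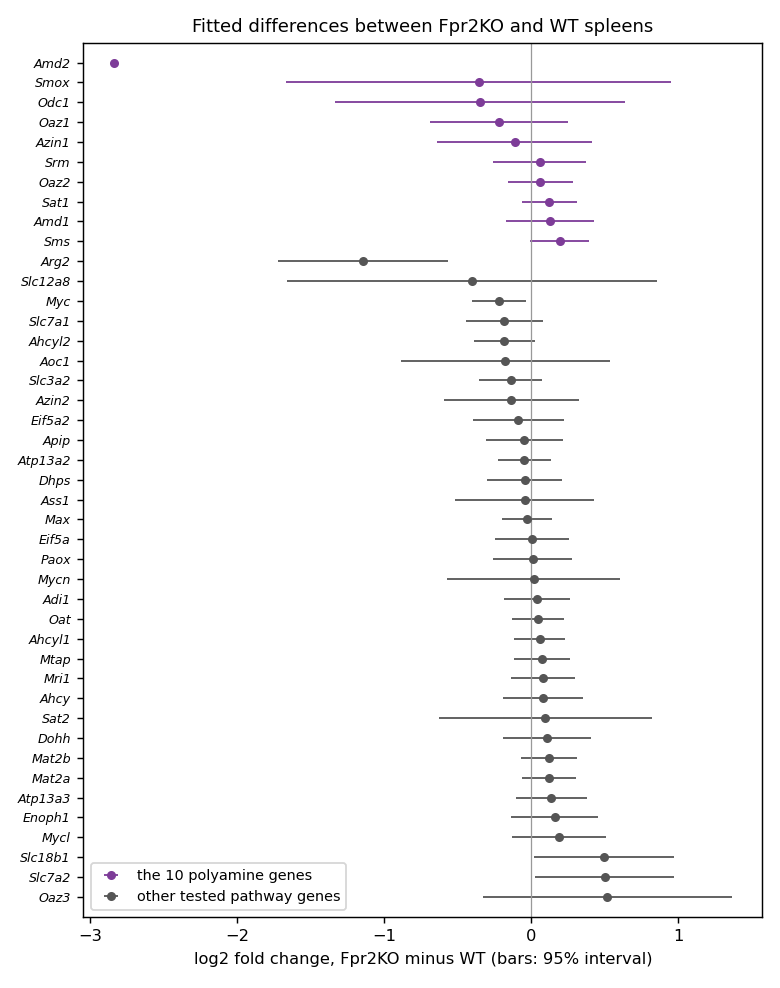
Fitted log2 fold change (Fpr2KO minus WT) with 95% intervals (none for Amd2, which was chosen for its difference) for the 10 polyamine genes (purple) and the 33 other tested pathway genes (grey), each group sorted by value. Amd2 stands at -2.84, Arg2 at -1.15, and the intervals of the 9 other polyamine genes all include 0.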

How the data were processed

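The authors deposited 1 table of raw read counts by Ensembl gene. FastQC 0.10.1, HTSeq 0.10.0 and the build mm10 (GRCm38) are listed in the submitters' processing notes. An aligner, annotation release or strand setting is not given in the sources used here. Symbols, positions and exon lengths came from GENCODE M21 (GRCm38), which matched 52081 of 55414 gene IDs and 99.8% of the counts.

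The comparison used the robust quasi-likelihood test of edgeR 4.0.16 in R 4.3.3, after TMM scaling and default filterByExpr, which kept 16089 genes. A call needed a p under 0.05 after Benjamini-Hochberg adjustment over all of them. Log2 fold changes are Fpr2KO minus WT. Each SE is the log2 fold change divided by the root of F, and 95% intervals use it with the t quantile. A floor of 3 counts was worth 0.156 to 0.201 CPM. Transcripts of Amd1 and Amd2 were aligned with MAFFT. Simulated counts with known changes were used to test the edgeR fit.

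The members and lists were chosen with earlier results of these data known. Named were Fpr2, the 10 genes, pathway genes with an unadjusted p under 0.05 or among the 2 smallest p of their list, all Amd copies, and the 5 genes nearest to Amd2. Eif5a, Arg1, Mat1a, Ass1, the nearest tested neighbours of Amd2 and pseudogenes other than those named Amd were added after their values were seen. Same-numbered samples did not deviate together (correlations of 0.08, -0.43 and -0.07), so the numbers were not taken as pairs. Tried as alternatives were other scalings and filters, DESeq2 1.42.0, voom in limma 3.58.1, leaving libraries out, a replicate block, non-robust estimation, and library sizes that omit haemoglobin, immunoglobulin and mitochondrial genes.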

Additional observations from a re-analysis of the deposited data

How the results depend on the processing

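With a replicate block the log2 fold change of Amd2 was -2.83 and 0 of the 10 genes were called. Amd2 was chosen by its call in these libraries, so no support is drawn from how it fared under other settings. The numbers were not found to pair the samples. None of the 9 other genes passed under any of the alternatives. Without Fpr2KO replicates 1 and 2 together, log2 fold changes were -0.41 for Odc1, -0.56 for Smox, -0.22 for Azin1 and -0.24 for Oaz1. In that fit Srm was at 0.13, Sms at 0.19, Sat1 at 0.14 and Oaz2 at 0.13. Log2 fold changes that changed sign when 1 library was left out ranged from -0.29 to 0.039 for Azin1, -0.33 to 0.029 for Oaz1 and -0.75 to 0.093 for Smox (higher without WT replicate 2), from -0.090 to 0.20 for Srm (lower without WT replicate 1) and from -0.0082 to 0.11 for Oaz2 (lower without Fpr2KO replicate 4). With the erythroid marker sum as a term, an alternative chosen after seeing the data, they were 0.023 for Odc1, 0.14 for Smox and 0.11 for Azin1, and with the replicate block -0.0091 for Oaz2. Slopes on that sum ranged from -0.0094 to 0.094 for Oaz2 and from -0.085 to 0.14 for Srm when 1 library was left out, and that of Srm was 0.039 on the proliferation sum. The cause of these changes was not tested.

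Over all genes edgeR called 6, against 58 with DESeq2 (10 higher, 48 lower), 21 with no low count filter, 12 with the erythroid term and 2 with the replicate block. Leaving out 1 library gave between 5 and 15 calls, with 10 without WT replicate 1 and 15 without WT replicate 3. DESeq2 called 1 of the other pathway genes, Arg2, and no other setting called any. Leave-one-out log2 fold changes of Amd2 lay between -2.89 and -2.77. Depth limits the precision of Amd2 in Fpr2KO, with 10 to 14 reads per library.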
